A study of Arabidopsis thaliana with 6 samples.

Results

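AT2G21640, NDB2 and MSRB5, nuclear genes of mitochondrial stress and methionine repair, were followed in roots of Arabidopsis thaliana seedlings exposed to excess boron. They are 3 of 13355 genes with a named probe set on the Affymetrix ATH1 array, and the annotation of the array's probes gives 1 probe set to each of them. The genes were picked because their values in boric acid and control roots were already known. Their levels and differences are therefore given as a description, without a test. Levels were read on 6 arrays, 3 from roots of seedlings that spent 12 h on plates with boric acid at 5 mM and 3 from roots on plates without it. The seedlings were 5 days old at transfer, and strain and genotype are not given in the sources used here. The labels call the arrays biological replicates numbered 1 to 3 but do not say what was grown or extracted separately, so the p-values below measure only the spread between these samples. The growth description mentions the boric acid plates for all 6 samples, and the titles and treatment labels are what set the controls apart.

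Mitochondria of plants hold, beside the proton-pumping complexes of the respiratory chain, alternative enzymes that move electrons without pumping. NDB2 is one of these, an NADH dehydrogenase on the outer face of the inner membrane that passes electrons from cytosolic NADH to ubiquinone. AT2G21640 is annotated as a mitochondrial protein of oxidative stress, and impaired mitochondria are known to signal to the nucleus and change the level of such transcripts. Methionine in proteins is oxidised to methionine sulfoxide by reactive oxygen, and methionine sulfoxide reductases turn it back, with thioredoxins as the usual source of electrons. Reductases of type A act on one stereoisomer of the sulfoxide and those of type B, such as MSRB5, on the other.

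Values are the authors' log2 expression values after RMA, which corrects, normalizes and summarises the probes of a probe set, and a difference of 1 is a doubling of signal. The array's TrpnX control probe sets, which match no plant transcript, had a highest reading of 0.217, and values near it are called background here. Because probe sets differ in how well they bind, the level of one gene is not compared with that of another. Of the 13 markers of root tissue that were looked up, only the root hair expansin EXPA7 has a named probe set, and it read between 2.89 and 4.41 on the 6 arrays. Of 12 markers of green tissue, 3 are named, and their summed log2 level was 9.17 to 11.6 in boric acid and 10.4 to 12.4 in control roots, with no value under 1.18. Neither list had a member past the threshold used below, beside 2.71% of all genes. With so few measured markers this says little about either tissue, and their part in the results was not tested. The largest change was that of LHCB4.2, -0.99 ± 0.33 (SE, limma adjusted p = 0.187). Without control 1 the change of LHCB4.2 was -1.32 and past the threshold (limma adjusted p = 0.035). In whole roots, fewer cells of a type and less RNA per cell cannot be told apart.

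AT2G21640 and NDB2 were higher and MSRB5 was lower in boric acid. AT2G21640 was 7.33-fold higher, NDB2 was 2.84-fold higher by its mean, and MSRB5 was 7.47-fold lower. AT2G21640 ranked 12 and NDB2 ranked 86 among 13355 genes ordered from the largest increase down, and MSRB5 ranked 3 from the other end.

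The transcript of AT2G21640 read 1.63, 0.86 and 1.21 on control arrays 1 to 3 and 4.34, 3.92 and 4.07 on boric acid arrays 1 to 3. It was thus low but above background in every control, and the lowest boric acid array lay 2.29 above the highest control. Group means were 1.23 ± 0.39 (SD, n = 3) in control and 4.11 ± 0.21 in boric acid, and the difference was 2.87 ± 0.22 (SE of the fit). Arrays of the same number differed by 2.71, 3.06 and 2.85, so each of the 3 numbers shows nearly the whole difference.

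For NDB2 the control arrays read 6.09, 4.31 and 4.63 and the boric acid arrays 6.82, 6.49 and 6.23. The groups were separated by only 0.14, because control 1 stood close to the boric acid arrays and well above the other 2 controls. Its means were 5.01 ± 0.95 (SD, n = 3) and 6.52 ± 0.30, a difference of 1.51 ± 0.46 (SE). The control arrays of NDB2 were thus more scattered than its boric acid arrays. The spread within groups, 0.70 when both are pooled, was wider than that of 97.8% of genes. By number the differences were 0.74, 2.18 and 1.60, all positive and smallest for the arrays numbered 1.

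MSRB5 read 7.99, 7.70 and 7.63 in control and 5.08, 4.65 and 4.89 in boric acid. All controls lay at least 2.55 above all boric acid arrays. The means were 7.77 ± 0.19 (SD, n = 3) and 4.87 ± 0.21, with a difference of -2.90 ± 0.16 (SE), and arrays of the same number differed by -2.92, -3.05 and -2.74. The transcript remained far above background in boric acid.

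**Figure D1:**
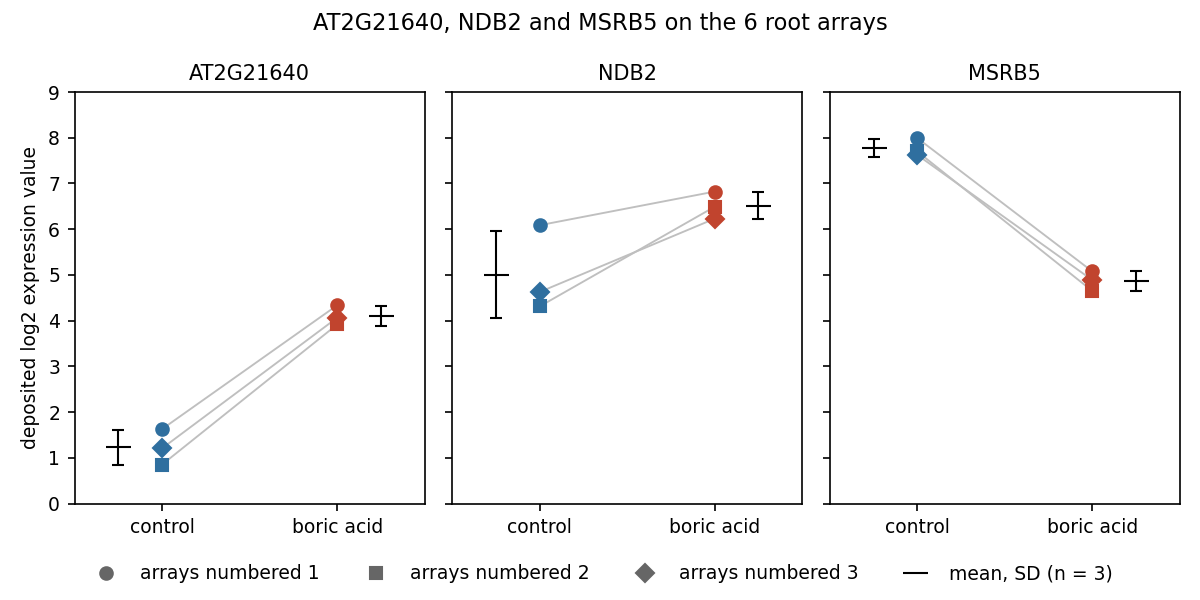
Deposited log2 expression values (vertical axis) of AT2G21640, NDB2 and MSRB5 on control and boric acid arrays; symbols mark the replicate number, grey lines join arrays of the same number, and black bars give the mean and SD of 3 arrays. AT2G21640 goes from 1.23 to 4.11 and MSRB5 from 7.77 to 4.87 with well separated groups, while control 1 of NDB2, at 6.09, lies just under the lowest boric acid array at 6.23.

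The value of NDB2 moved most with control 1. Without that array its difference was 2.05, and over the 6 fits that leave out a single array it lay between 1.16 and 2.05. Without both arrays numbered 1 it was 1.89. The corresponding ranges over the 6 fits were 2.69 to 3.07 for AT2G21640 and -3.004 to -2.790 for MSRB5. The groups do not overlap in any of the 3 genes, beside 20.0% of all genes. The genes were chosen with these values known, so neither the separation nor its direction is a result about them.

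The arrays numbered 1 also differed from the others in a measure of RNA quality. The 3′ probe set of actin exceeded the 5′ one by 2.96 on boric acid 1 and 2.60 on control 1, against 1.23 to 1.71 on the other arrays. NDB2 on control 1 lay 1.62 above the mean of the other controls, and on boric acid 1 it lay 0.46 above the mean of the other boric acid arrays. Over all genes, 5% to 95% of such gaps ran from -0.77 to 0.73 in control and from -0.57 to 0.55 in boric acid. AT2G21640 had gaps of 0.60 and 0.35 and MSRB5 of 0.33 and 0.31, inside those ranges. With the actin difference as a covariate the change of NDB2 was 1.40, that of AT2G21640 was 2.83 and that of MSRB5 was -2.93.

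**Figure D2:**
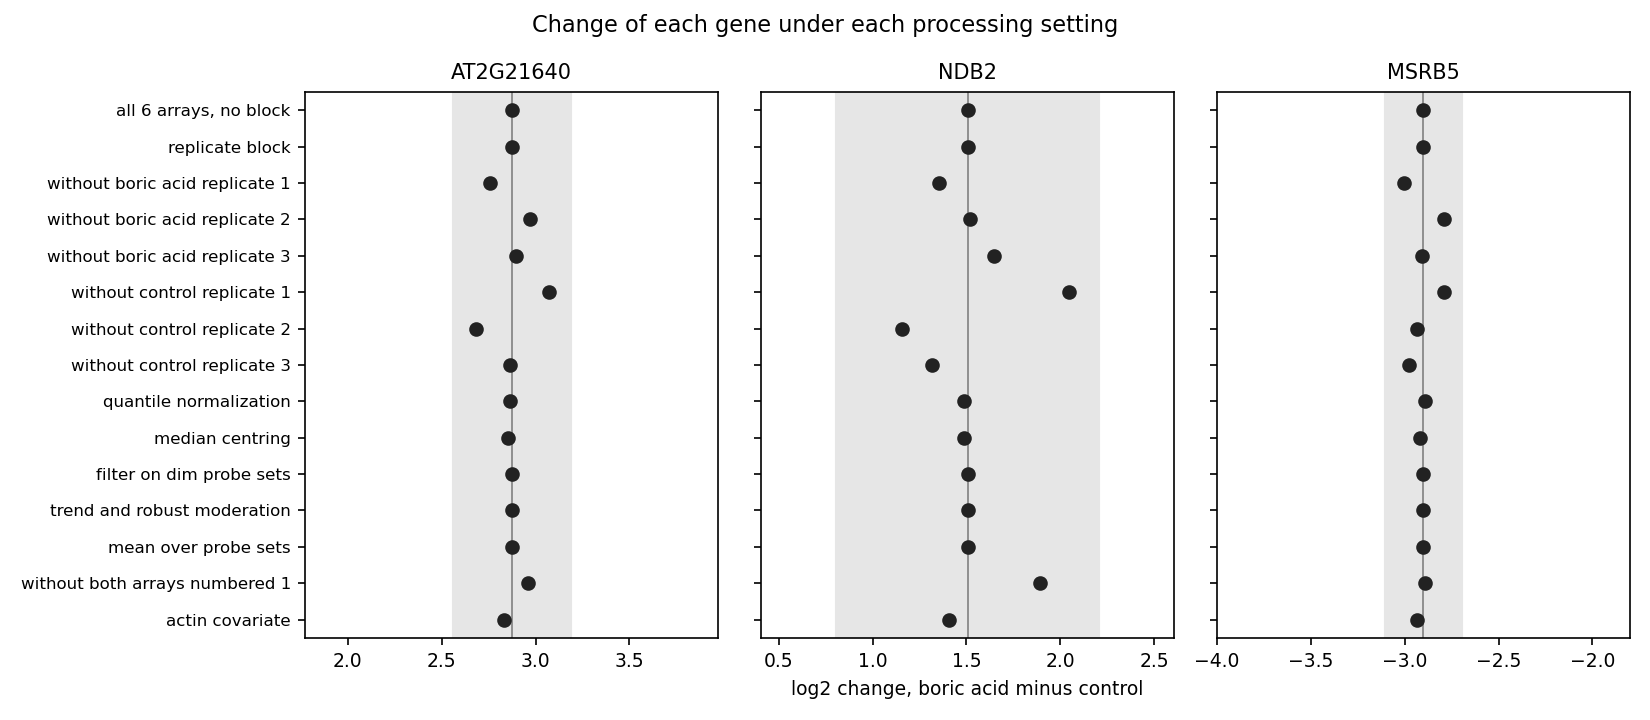
Log2 change (horizontal axis) of AT2G21640, NDB2 and MSRB5 in each fit, one row per processing setting; the grey line is the change with all 6 arrays and the grey band adds and subtracts the pooled SD within groups. The points of all 3 genes lie within their bands, which points of fits without a single array cannot leave. The band of NDB2 is the widest, with its highest point, 2.05, in the fit without control 1.

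Other genes were tested with a linear model in limma fitted to all probe sets, with Benjamini-Hochberg adjustment and an adjusted p of 0.05 as the threshold, and a gene is said to have risen or fallen where it was past it. Of all 13355 genes 2.71% were past it, and 7.84% with the replicate number as a block in the model, while 14.9% had an unadjusted p under 0.05. The lists of these genes were chosen with earlier results of these data known, so their shares past the threshold are a description. The other genes for alternative electron transport were examined first. Beside NDB2, 4 of 16 listed genes have a named probe set, all of them alternative NAD(P)H dehydrogenases, and the alternative oxidases and uncoupling proteins of the list were not analysed here. None of these 4 passed in limma, with or without the block, beside 2.71% and 7.84% of all genes, and none had an unadjusted p under 0.05. NDB1, which prefers NADPH, had a change of 0.08 ± 0.25 (SE), and NDC1, found in mitochondria and plastids, one of -0.05 ± 0.22. NDB3 and NDB4, of the same family as NDB2, had changes of 0.13 ± 0.09 and 0.36 ± 0.15. For these 2 of 4 every boric acid array lay above every control array, beside 10.1% of all genes, by gaps of 0.07 and 0.01. NDB4 read 0.61, 0.66 and 0.36 in control and 1.13, 0.67 and 0.90 in boric acid. A difference between NDB2 and its relatives was not tested.

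Transcripts known to rise when mitochondria are impaired gave 8 further measured genes out of 27 listed, 7 with a positive change, beside 46.4% of all genes. AT2G41730 rose and the other 7 did not pass, so 1 of 8 was called higher, beside 1.62% of all genes. With the block AT2G41730, AT5G43450 and AT5G51440 rose, 3 of 8 beside 4.63% of all genes. The median change of the 8 was 0.52, against -0.02 over all genes.

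AT2G41730 read 3.33, 2.83 and 2.89 in control and 4.49, 4.11 and 4.38 in boric acid. Its groups were well apart, and it rose by 1.31 ± 0.18 (SE, limma adjusted p = 0.0181), a 2.48-fold difference. Its probe set carries the suffix that marks probes shared with other sequences, so signal of another transcript may be included. Without a single array this call was kept only when control 1 was left out, at changes of 1.22 to 1.47.

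AT5G43450 had a change of 1.02 ± 0.26 (limma adjusted p = 0.108, and 0.0146 with the block) and that of AT5G51440 was 0.64 ± 0.29 (limma adjusted p = 0.339, or 0.0372 in the blocked fit). AT5G43450 read 2.88, 2.04 and 2.84 in control and 3.62, 3.32 and 3.87 in boric acid, without overlap. In AT5G51440 control 1, at 1.38, exceeded the 2 lower boric acid arrays, at 1.20 and 1.37, as control 1 nearly did for NDB2. AT5G09570 had a change of 0.62 ± 0.28, or 0.31 without boric acid 1, and AT2G04050 one of 0.42 ± 0.13, both without overlap and neither past the threshold. In all, 4 of the 8 genes were higher without overlap, beside 10.1% of all genes. The remaining changes were 0.15 ± 0.11 for AT5G64400, 0.05 ± 0.09 for AT2G04070, which was near background in both groups, and -0.38 ± 0.37 for AT5G14730, which was -0.03 without control 1.

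AT2G21640 also belongs to a short list of transcripts that serve as general markers of oxidative stress, of which 3 others were measured. AT1G05340 rose and 2 did not pass, 1 of 3 called higher beside 1.62% of all genes. AT1G05340 read 6.39, 6.67 and 6.37 in control and 8.17, 8.03 and 8.03 in boric acid, and it rose 3.02-fold, or by 1.60 ± 0.12 on the log2 scale (limma adjusted p = 0.00426). Its groups were 1.36 apart, and it was past the threshold in each of the 6 fits without 1 array. AT1G19020 had a change of -0.16 ± 0.59, and its values of 6.44 on control 1 and 6.76 on boric acid 1 stood above the 4.86 to 5.43 of the other arrays. AT1G57630 was near background, at means of 0.08 and 0.07.

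Genes for core mitochondrial functions were taken as a further list, of which 7 of 24 were measured. No member passed, beside 2.71% of all genes, and 4 of 7 had an unadjusted p under 0.05 in limma, beside 14.9%; with the block CYTC-2 and SDH1-1 rose, 2 of 7 beside 4.63% of all genes. The median change was 0.40. CYTC-2, one of the genes for cytochrome c, which carries electrons to the terminal oxidase, read 6.84, 5.75 and 5.52 in control and 7.70, 7.25 and 7.03 in boric acid. Its change of 1.29 ± 0.37 (SE, limma adjusted p = 0.135, and 0.0128 with the block) came with the same high control 1 as in NDB2. Without control 1 it was 1.69 (adjusted p = 0.0155 in limma). CYTC-1, the other measured cytochrome c gene, had a change of 0.27 ± 0.14.

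Succinate dehydrogenase, complex II of the chain, was represented by SDH1-1, SDH1-2, SDH2-1 and SDH2-2. SDH1-1 had a change of 0.56 ± 0.14 (limma adjusted p = 0.0907, and 0.033 with the block), SDH2-1 one of 0.67 ± 0.19 and SDH2-2 one of 0.24 ± 0.14. SDH2-1 has more than 1 probe set, and with their mean in place of the brightest its change was 0.28. Without control 1 the change of SDH2-1 was 0.87 (limma adjusted p = 0.0217). SDH1-2, whose levels were low at means of 0.39 in boric acid and 0.87 in control, had a change of -0.49 ± 0.19. For SDH1-1 and SDH2-1 all boric acid arrays lay above all controls, beside 10.1% of all genes. For SDH1-2 all lay below, beside 9.88%.

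**Figure D3:**
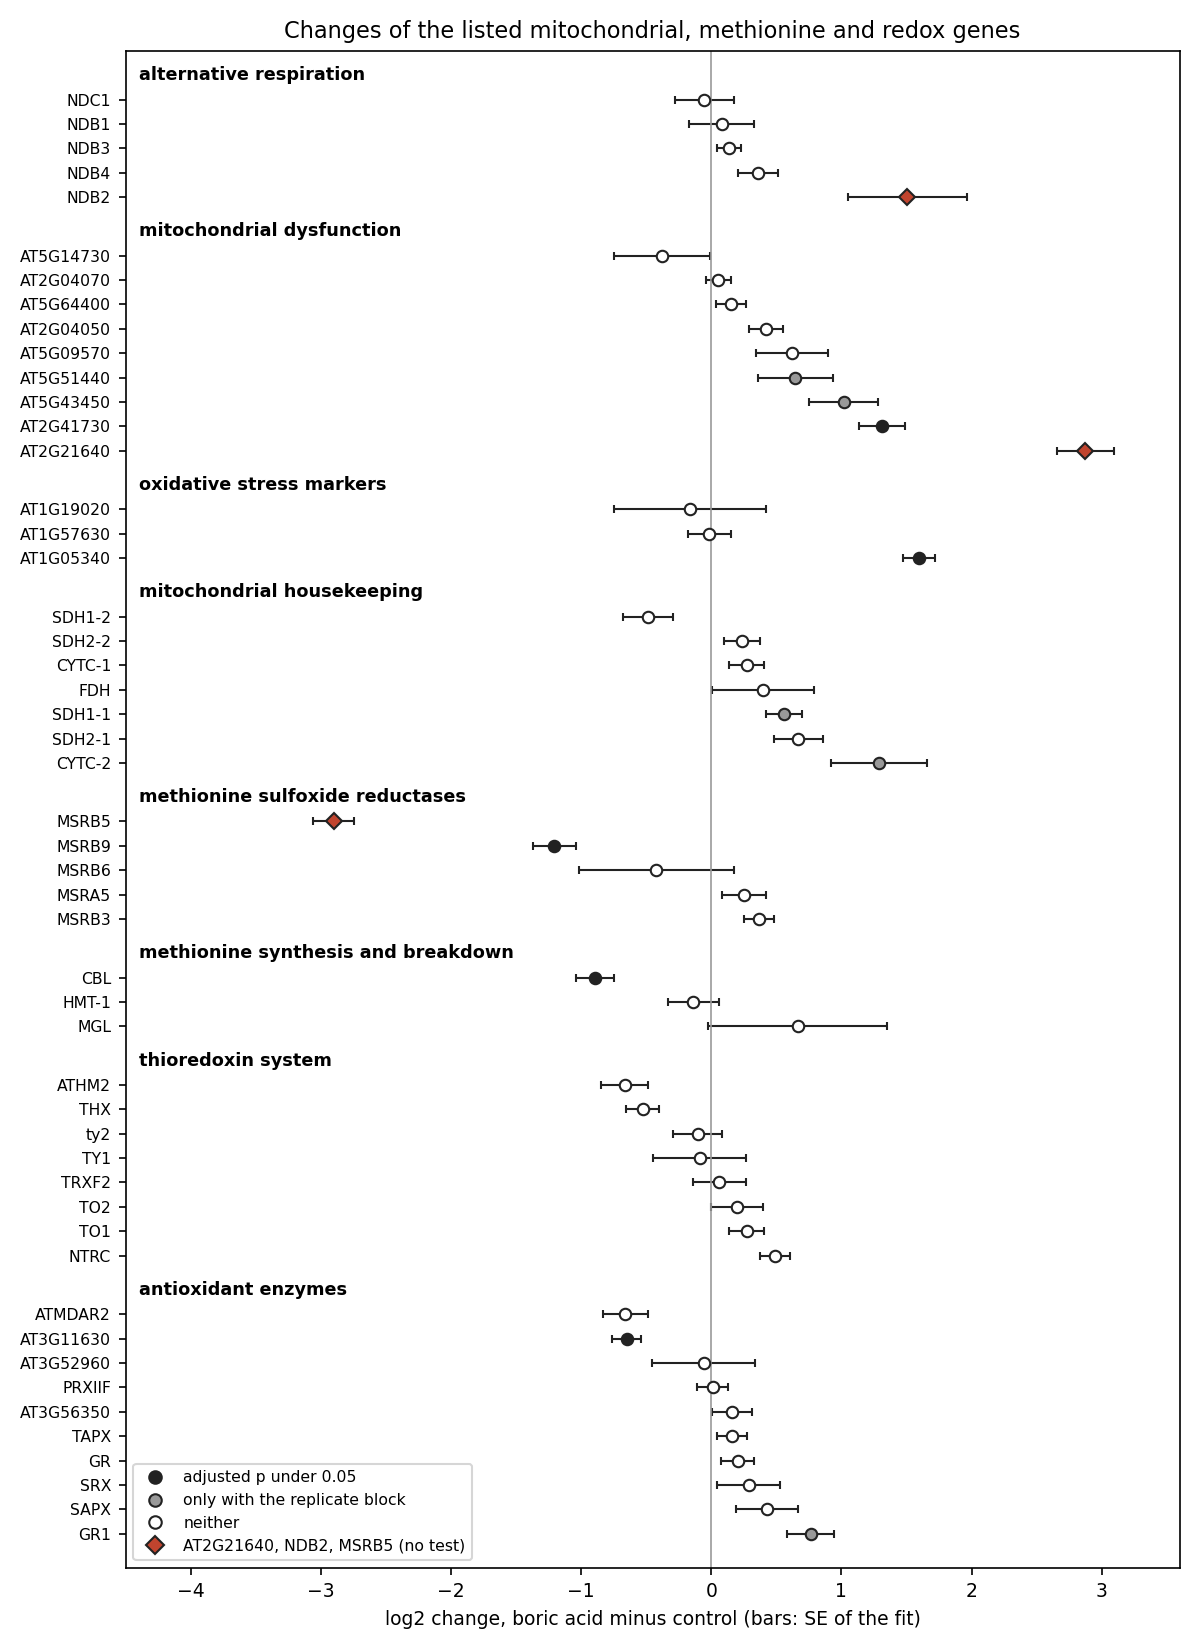
Log2 change with boric acid (horizontal axis, bars are the SE of the fit) of the measured genes of the 8 lists; black points have an adjusted p under 0.05, grey points have one only with the replicate block, and red diamonds are AT2G21640, NDB2 and MSRB5, shown without a test. AT2G21640 lies farthest to the right at 2.87 and MSRB5 farthest to the left at -2.90, while 42 of the other 47 genes are not past the threshold without the block.

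Of the methionine sulfoxide reductases, 5 of 14 were measured: MSRB5, MSRB3, MSRB6 and MSRB9 of type B and MSRA5 of type A. Apart from MSRB5, MSRB9 fell and 3 did not pass, so 1 of 4 was called lower, beside 1.09% of all genes, and again 1 of 4 with the block, beside 3.20%. MSRB9 read 7.80, 7.84 and 7.32 in control and 6.54, 6.43 and 6.37 in boric acid. The groups were 0.78 apart, and MSRB9 fell by 1.21 ± 0.16 on the log2 scale (SE, limma adjusted p = 0.0182), a 2.31-fold difference. The call was kept without control 1 or control 3 and lost in the other 4 fits without 1 array, with adjusted p = 0.053 to 0.0955 in limma and changes between -1.37 and -1.11 over all 6.

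MSRB3 had a change of the opposite sign, 0.37 ± 0.11 (SE, limma adjusted p = 0.166), with 4.56, 4.41 and 4.23 in control and 4.77, 4.76 and 4.77 in boric acid. Its boric acid arrays lay above all controls by 0.20, beside 10.1% of all genes without overlap in that direction. MSRB6 read 7.10, 5.09 and 5.39 in control and 6.26, 4.98 and 5.07 in boric acid, a change of -0.42 ± 0.59. The arrays numbered 1 stood apart for MSRB6 in both groups, by 1.86 in control and 1.23 in boric acid. Each number alone gave a negative difference, -0.84, -0.11 and -0.32, and with the block MSRB6 did not pass either (adjusted p = 0.194 in limma). MSRA5 had a change of 0.25 ± 0.17, with overlapping groups.

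In the gene table, MSRB3, MSRB4, MSRB5 and MSRB6 lie close together on chromosome 4, with a pseudogene, AT4G04820, next to MSRB5. AT4G04820 had a change of -0.08 ± 0.15, and MSRB4 was not analysed here. MSRB7, MSRB8, MSRB9 and MSRB2 form another cluster on the same chromosome, of which only MSRB9 was measured. Reductases of this family resemble each other, and the probe sequences were not used here, so signal from a close relative cannot be told apart in these probe sets. The measured genes beside the other 2 were AT2G21630, next to AT2G21640, with a change of -0.16 ± 0.13, and AT4G05030, next to NDB2, with one of 0.02 ± 0.10.

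**Figure D4:**
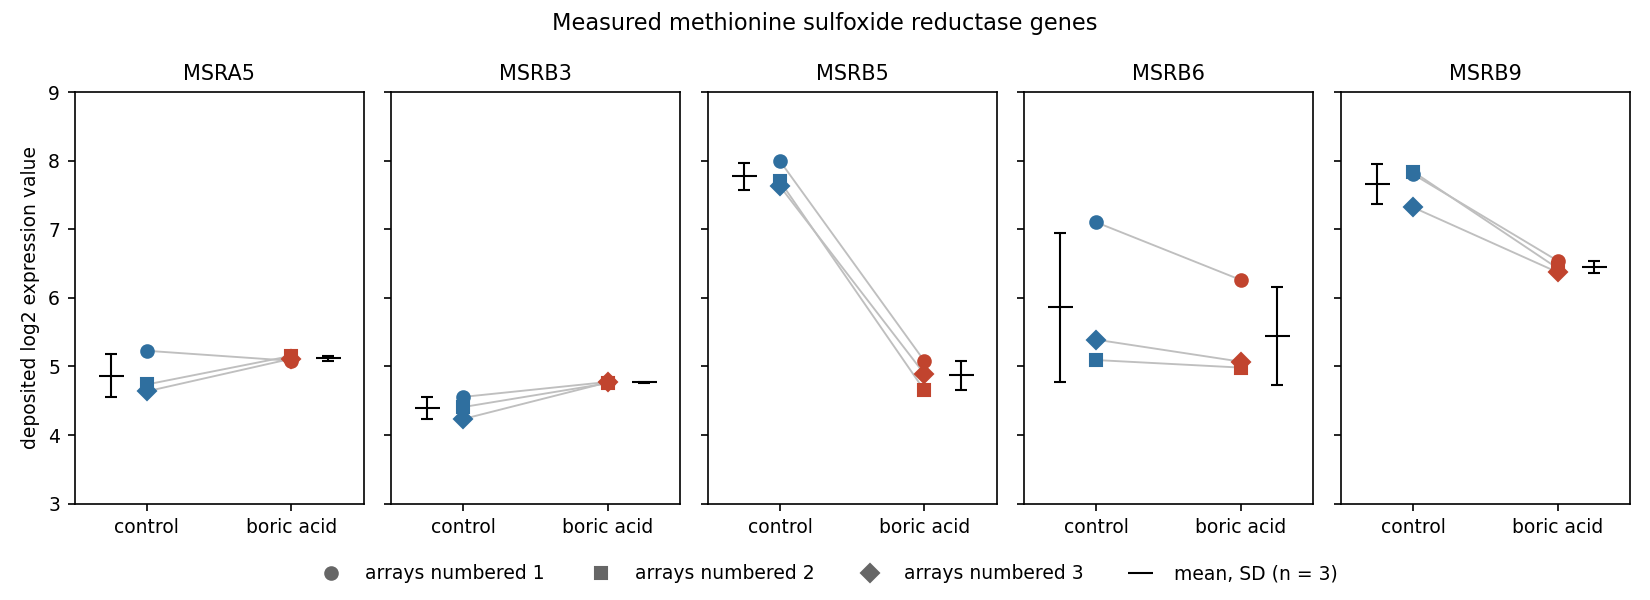
Deposited log2 expression values (vertical axis, starting at 3) of the 5 measured methionine sulfoxide reductase genes on control and boric acid arrays, with symbols for the replicate number, grey lines between arrays of the same number, and the mean and SD of 3 arrays. MSRB5 and MSRB9 are lower on all boric acid arrays, by 2.90 and 1.21 on average, MSRB3 is slightly higher on all of them, and MSRB6 is high on the arrays numbered 1.

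Methionine supply had 3 measured genes of 17 listed. CBL, cystathionine beta-lyase, which makes the homocysteine from which methionine is formed, fell and 2 did not pass, 1 of 3 called lower beside 1.09% of all genes. CBL read 5.77, 5.78 and 6.13 in control and 5.18, 4.85 and 4.98 in boric acid, and it fell by 0.89 ± 0.15 (SE, limma adjusted p = 0.033). Leaving out single arrays gave changes of -0.98 to -0.78, past the threshold only in the fit without control 1. HMT-1, a homocysteine methyltransferase, had a change of -0.14 ± 0.20. MGL, the methionine gamma-lyase that breaks methionine down, had one of 0.66 ± 0.69, with controls as far apart as 2.44 and 5.08.

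The thioredoxin system supplies electrons to the reductases, and 8 of its 24 listed genes were measured. The 8 are NTRC and thioredoxins of the m, f, x, y and o types, and the other 16 listed genes have no value here. Whether any of the 8 supplies MSRB5 is not known from these data. None passed in limma with or without the block, beside 2.71% and 7.84% of all genes, and 3 of 8 had an unadjusted p under 0.05, beside 14.9%. The changes ran from -0.67 for ATHM2, a plastid thioredoxin of the m type (± 0.18 SE, adjusted p = 0.118 in limma), to 0.49 for NTRC, a plastid thioredoxin reductase (± 0.12 SE, adjusted p = 0.0888). TO1 and TO2, thioredoxins of the o type, of which TO1 is placed in mitochondria, had changes of 0.27 ± 0.14 and 0.20 ± 0.20, which were 0.15 and 0.02 without control 3. The median of the 8 was -0.01, close to that of all genes.

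Among enzymes that remove peroxide and superoxide or recycle ascorbate and glutathione, 10 of 47 were measured. AT3G11630, listed as a peroxiredoxin of the 2-Cys type, fell and 9 did not pass, 1 of 10 called lower beside 1.09% of all genes. Its values were 7.01, 7.10 and 7.09 in control and 6.26, 6.53 and 6.46 in boric acid, and it fell by 0.65 ± 0.11 (SE, limma adjusted p = 0.035). Among the fits without 1 array this call was kept only without control 1. With the block GR1, a glutathione reductase, rose as well, 1 of 10 called higher beside 4.63% of all genes. GR1 read 7.59, 6.92 and 7.14 in control and 7.97, 8.00 and 7.97 in boric acid, so its difference was 0.76 ± 0.18 (limma adjusted p = 0.0849, or 0.0427 in the blocked fit), and without control 1 it was 0.95 (adjusted p = 0.0156). ATMDAR2, which recycles ascorbate, had a change of -0.66 ± 0.17 (adjusted p = 0.112 in limma). PRXIIF, the mitochondrial peroxiredoxin, had one of 0.01 ± 0.12.

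Taking each gene of the 8 lists once and leaving out AT2G21640, NDB2 and MSRB5, 47 of 171 were measured. Of these 2 rose and 3 fell, 10.6% beside 2.71% of all genes, and with the block 7 rose and 3 fell, 21.3% beside 7.84%. The lists were chosen with earlier results known, so these shares are not independent of the comparison. The median change of the 47 was 0.16. The groups did not overlap for 22 of 47, beside 20.0% of all genes, with 15 higher, beside 10.1%, and 7 lower, beside 9.88%. The number past the threshold was 1 without boric acid 1, 2 or 3 or control 2, 2 without control 3 and 8 without control 1 or without both arrays numbered 1. Over all genes it moved as well, from 362 to 167, 36 and 87 without boric acid 1, 2 and 3, to 573, 64 and 128 without control 1, 2 and 3, and to 809 without both arrays numbered 1.

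To place the 3 genes among the rest, each gene's log2 values were centred on its own mean, and likeness was measured as the root mean square difference over the 6 arrays. These genes were picked by pattern, so they are described without a test. The 4 genes most like AT2G21640 were AT1G73480, AT1G76470, AT5G47530 and AT4G36610, at distances of 0.29 to 0.39 and with changes of 2.33, 2.42, 2.57 and 2.68. The distance is not scaled for the size of a change, so it is not compared between AT2G21640 and NDB2. Nearest to NDB2 were AT2G17760, AT5G37690, AT2G20560 and AT3G57010, at distances of 0.14 to 0.20 and with changes of 1.19 to 1.68. These share its high control 1: AT2G17760, the closest, read 4.77, 2.73 and 3.26 in control and 5.10, 4.86 and 4.72 in boric acid.

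For MSRB5 the 4 most alike were AT4G21870, AT3G18450, AT1G21440 and AT4G15390, at distances of 0.24 to 0.34 and with changes between -2.99 and -2.28. AT4G21870, the closest, read 3.92, 3.65 and 3.61 in control and 1.65, 0.57 and 0.73 in boric acid. In the gene table it lies 3 places from MSRB9, beyond MSRB2 and AT4G21865, of which the latter was measured with a change of -0.04 ± 0.20. AT2G21640 and NDB2 were at a distance of 0.77 from each other, NDB2 ranking 68 in likeness to AT2G21640 and AT2G21640 ranking 1115 in likeness to NDB2. Because the distance depends on the size of a change, these ranks do not measure a shared pattern alone.

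**Figure D5:**
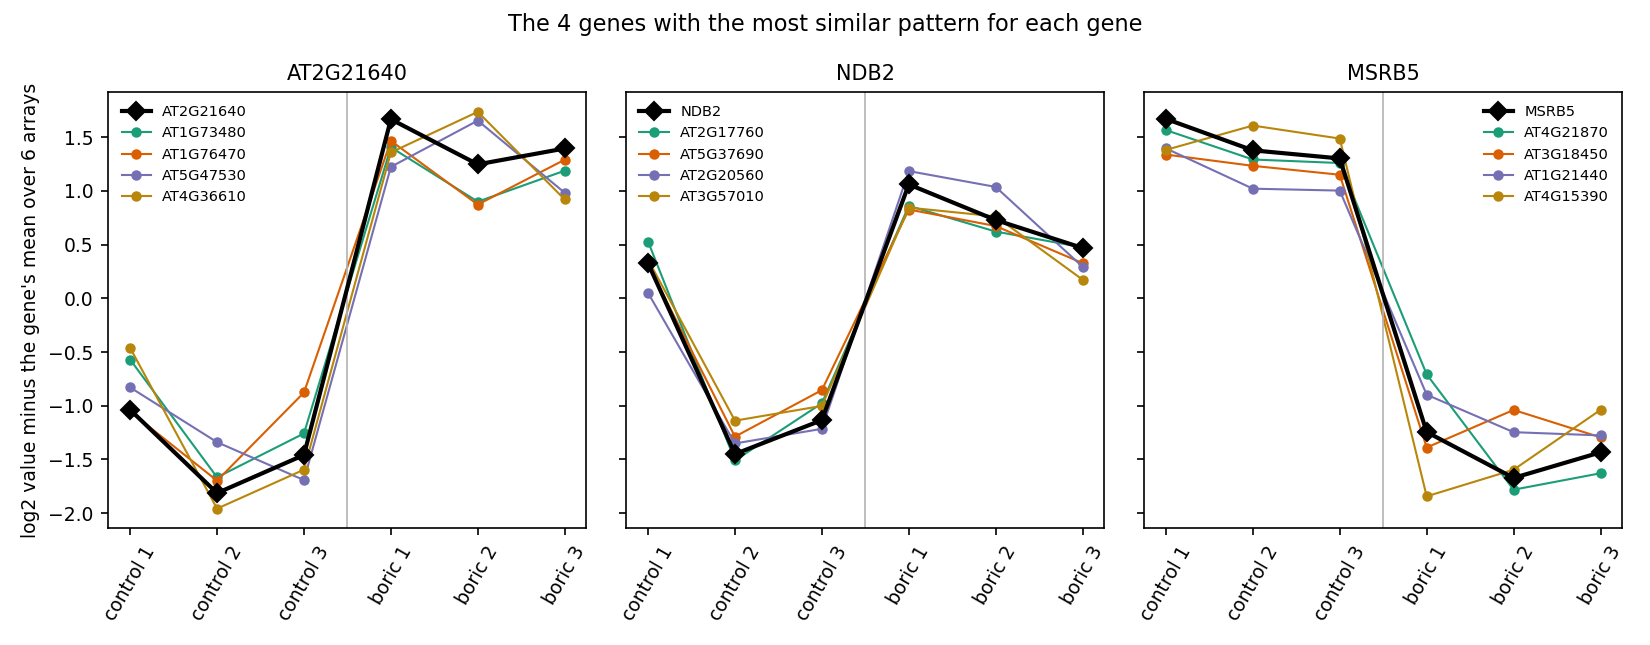
Log2 values minus each gene's mean over the 6 arrays (vertical axis) by array, for AT2G21640, NDB2 and MSRB5 (black diamonds) and the 4 genes nearest to each (coloured points); the vertical line parts control from boric acid. The NDB2 group shows control 1 above the other 2 controls in all 5 genes, and in the MSRB5 group all 5 genes are lower on every boric acid array than on every control.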

How the data were processed

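The authors processed the 6 ATH1 arrays with RMA, per the submitters' processing notes, which give no version, and deposited log2 values per probe set. Array medians lay between 1.45 and 1.49. Of 22810 probe sets, 64 controls were set aside and 22746 tested. Probe sets were named through the array's annotation and the RefSeq gene table of TAIR10.1, used for names and gene order only: 13513 matched a single gene (13355 genes), 503 several and 8730 none. The probe set with the highest mean stood for a gene with several. Boric acid was compared with control by limma 3.58.1 in R 4.3.3 (lmFit, eBayes, two-sided, Benjamini-Hochberg over all 22746). The fit was tested on simulated data with noise drawn separately for each array, which lack the shared deviations described below. On arrays, their number limits the precision.

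The genes and all lists were chosen with earlier results of these data known. Named were the 3 genes, every measured gene of the first 3 mitochondrial and oxidative lists and of the reductases, up to 4 genes past the threshold (or the largest change) of the other lists, adjoining measured genes, and the 4 most alike. CYTC-1, the SDH genes, GR1, ATMDAR2, PRXIIF, NTRC, TO1, TO2, HMT-1, MGL and AT4G21865 were added after their values were seen.

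Arrays of the same number deviated together for numbers 1 and 3: the deviations from the mean of the group correlated at 0.608 and 0.618. For number 2 the value was 0.231, below the 0.284 of boric acid 3 with control 2. Unlike numbers ran from -0.619 to 0.284. The number was therefore used for the differences between arrays of the same number and, as an alternative, as a block. Calls given without mention of the block come from the fit that ignores the number. This pairing comes from the data and not from the labels. Alternatives were this block, leaving out each array, quantile normalization, median centring, a filter on dim probe sets, trend and robust moderation, averaged probe sets and, chosen after seeing the data, leaving out both arrays numbered 1 and an actin covariate.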

Additional observations from a re-analysis of the deposited data

How the results depend on the processing

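With 3 arrays a group, counts moved more than the changes of the 3 genes. The differences of AT2G21640, NDB2 and MSRB5 stayed within 1 SD of their replicates in all 14 alternatives. The block, the dim filter, the moderation and, with 1 probe set each, the averaging could not move these differences. Leaving out 1 of 3 arrays in a group cannot move a difference by the full SD pooled within groups. The fits without 1 array therefore had to stay within it, and for them this is no sign of stability. For NDB2 this SD was wide, at 0.70, and its difference ran from 1.16 to 2.05 without 1 array. All genes past the threshold numbered 362, 1047 with the replicate block, 809 without both arrays numbered 1, 946 with the actin covariate and 36 to 573 without 1 array. The list genes past it (without the 3) numbered 5, 10 with the replicate block, 8 without both arrays numbered 1 and 8 with the actin covariate, and 1 to 8 without 1 array. The other 5 alternatives gave 332 to 358 and 4 to 5. Among the genes tested by name, the replicate block changed no call beyond those given with their results, and it reversed no change. AT3G11630 lost its call with the filter on dim probe sets (limma adjusted p = 0.0564) and with trend and robust moderation (adjusted p = 0.0533). Genes under the filter have no value there.

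Reversals concerned genes not past the threshold with small changes or wide spread. Without both arrays numbered 1 the changes were 0.082 for AT1G57630, -0.16 for MGL, -0.067 for PRXIIF, 0.10 for HMT-1, -0.16 for NDB1, 0.028 for NDC1, -0.023 for AT4G05030 and -0.26 for EXPA7. AT1G57630 (0.0049) and EXPA7 (-0.024) turned with quantile normalization, and PRXIIF (-0.0054) and AT4G05030 (-0.0021) with median centring. Leaving out 1 array turned AT1G19020 (-0.79 to 0.22), AT1G57630 (-0.16 to 0.14), MGL (-0.076 to 1.24), PRXIIF (-0.082 to 0.082), HMT-1 (-0.26 to 0.081), MSRB6 (-0.83 to 0.20), NDB1 (-0.13 to 0.28), NDC1 (-0.28 to 0.16), AT4G05030 (-0.037 to 0.065), AT4G04820 (-0.18 to 0.074), AT4G21865 (-0.24 to 0.10) and EXPA7 (-0.40 to 0.36). Without control 3, CYTC-1 was 0.18, SDH1-2 -0.28, SDH2-2 0.13, AT5G64400 0.07 and MSRA5 0.13, and without control 2 AT5G51440 was 0.41. Their causes were not tested. Values near 0.217, as for AT1G57630 and AT2G04070, are limited by background.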
